A study of Caenorhabditis elegans with 3 samples.

Results

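The peaks described here are the entries beside tRNA genes in a pooled EGL-27 peak list from whole L4 larvae of Caenorhabditis elegans. They are 511 of its 30000 nuclear peaks (1.70%). By its deposited name the list holds background beside peaks, so a peak here is not by itself an EGL-27 binding site. A peak was taken when its summit lay within 1000 bp of the start of a nuclear tRNA gene in the Ensembl annotation of WBcel235, the assembly that ce11 names. The rule uses position alone and no measured value. ChIP-seq, the sequencing of DNA that is pulled down with a protein, was made on 3 libraries, given in the labels as biological replicates 1, 2 and 4, which form 1 group with no second condition. All animals were of strain OP177, which carries unc-119(ed3) III and the transgene wgIs177, and were collected as mixed-sex L4 larvae of unstated age. The transgene makes EGL-27 fused at its C terminus to GFP and FLAG, so the tagged protein stands in for the endogenous one, and the antibody label names only egl-27. Whole animals were used, so no peak can be assigned to a tissue. A control experiment named in the labels was not analysed here.

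tRNA genes are transcribed by RNA polymerase III from promoters inside the gene, the A box and the B box, which are bound by the factor TFIIIC. The B box encodes the T arm of the tRNA and is the most conserved stretch of the gene. Many worm tRNA genes are copies of each other with the same sequence, and a large share of them lies on the X chromosome. EGL-27 resembles MTA proteins of vertebrates, which belong to the NuRD remodelling and histone deacetylase complex, and it is known in worms from cell fate, Hox gene control and stress resistance.

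The genes and the summit region shown here lie at 6 of the strongest peaks beside tRNA genes and were chosen because these peaks are also in the authors' reproducible list, are in all 3 library lists and cover X and autosomal genes, genes with identical copies and genes without. Each sequence is from the RefSeq WBcel235 genome, read 5′ to 3′ on the gene's strand, with the tRNA gene and 20 bases to each side. Capitals mark the core of the B box, GTTCGANNC, or, in F46G11.t2, the looser core GTTCNANNC. M02F4.t1 (Gly; chrX:3036144-3036255, plus strand) has 29 genes of identical sequence, itself included, F46G11.t2 (Pro; chrX:5801191-5801302, minus strand) has 24, C33G3.t2 (Lys; chrX:14063926-14064038, minus strand) has 14 and C18A11.t2 (Arg; chrX:8036665-8036777, minus strand) has 10. F57F5.t1 (Ile; chrV:12002156-12002280, plus strand) and C05G6.t1 (Val; chrIV:620462-620574, plus strand) have no identical copy. The last sequence is the summit of the peak beside C18A11.t2 with 75 bases to each side (chrX:8036354-8036504, plus strand), shown because this summit lies away from the tRNA gene itself. Its capitals mark the arms of its longest inverted repeat, found after the sequence was seen.
M02F4.t1: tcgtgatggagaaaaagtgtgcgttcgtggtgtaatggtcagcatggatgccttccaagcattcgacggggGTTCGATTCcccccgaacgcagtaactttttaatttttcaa
F46G11.t2: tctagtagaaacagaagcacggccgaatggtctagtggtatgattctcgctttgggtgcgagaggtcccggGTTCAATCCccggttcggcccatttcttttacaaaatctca
C33G3.t2: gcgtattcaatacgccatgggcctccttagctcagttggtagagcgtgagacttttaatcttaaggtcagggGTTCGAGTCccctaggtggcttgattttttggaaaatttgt
C18A11.t2: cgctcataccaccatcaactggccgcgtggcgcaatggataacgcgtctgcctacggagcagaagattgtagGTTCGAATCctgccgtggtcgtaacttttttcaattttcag
F57F5.t1: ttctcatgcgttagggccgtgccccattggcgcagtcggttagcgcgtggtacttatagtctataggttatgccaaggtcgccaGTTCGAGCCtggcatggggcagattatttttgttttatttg
C05G6.t1: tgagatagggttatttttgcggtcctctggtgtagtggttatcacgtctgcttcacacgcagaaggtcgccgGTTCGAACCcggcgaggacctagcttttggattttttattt
C18A11.t2 summit: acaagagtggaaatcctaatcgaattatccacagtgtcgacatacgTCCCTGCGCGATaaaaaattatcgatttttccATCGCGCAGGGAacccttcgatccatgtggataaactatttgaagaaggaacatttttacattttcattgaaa

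In 6 of these genes the core sits 52 to 65 bases into the gene, with F57F5.t1, the longest of them at 85 bp, at the far end of that range. The C18A11.t2 gene carries its core like the others, but the peak's summit lies 328 bp downstream of the gene's start. Under that summit are 2 arms of 12 bases that are reverse complements of each other, 20 bases apart. An inverted repeat with arms of at least 12 bases, within 75 bp of the summit, was present at 6 of the 511 peaks (1.17%, interval 0.432 to 2.54%) and at 1.61% of all nuclear pooled peaks, so the share beside tRNA genes was no higher than the background.

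The 10 peaks beside tRNA genes that are also reproducible peaks led the set in signal. The reproducible list, made by the authors with the irreproducible discovery rate (IDR) procedure from the other lists, holds 102 peaks, and these 10 are 9.80% of it. A further 3 peaks beside tRNA genes overlapped a reproducible peak as weaker neighbours, which gave 13 of 511 against 0.463% of all nuclear pooled peaks. The deposited signal, a value per peak with no stated scale, served only to rank peaks within a list. It ranged from 19.3 to 30.6 over the 10 peaks, and these were the 10 highest signals of the 511. The reproducible list was made from the other lists, so this order is not an independent result.

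The highest signal, 30.6, was at C18A11.t2 (X, 8036214 to 8036643), in a stretch between genes whose nearest protein-coding start, 4884 bp away, was that of xol-1, which sets sex and X dosage in the embryo. Its partner peaks in the library lists had signals of 6.42 in replicate 1, 5.73 in replicate 2 and 14.8 in replicate 4. The partner was the strongest peak of the whole replicate 4 list but ranked 126 in replicate 1 and 2132 in replicate 2. The second, 29.6, was at M02F4.t1, a glycine tRNA gene (X, 3035915 to 3036344), with its summit 34 bp upstream of the start. Its partners had signals of 5.0, 15.8 and 9.36 in replicates 1, 2 and 4 and ranked 489, 37 and 33 in their lists.

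F46G11.t2, a proline tRNA gene, had a peak of signal 26.4 (X, 5801088 to 5801517) with its summit 21 bp upstream. Its partners had signals of 2.86, 19.5 and 5.42 in replicates 1, 2 and 4. The replicate 1 partner ranked 4314 and had its summit 335 bp away, so the libraries did not place this peak at the same point. At rte-1, a glutamate tRNA gene (X, 14015759 to 14016188, signal 23.6), the summit was 30 bp into the gene and the partners had signals of 5.29, 6.57 and 4.40. At C33G3.t2, a lysine tRNA gene (X, 14063851 to 14064280, signal 22.0), the summit was 48 bp upstream and the partners had 8.09, 11.1 and 5.92. These 5 strongest peaks were all on the X chromosome.

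The next 5 were at an aspartate, an isoleucine, an alanine, a glutamate and a valine tRNA gene, and 4 of them were on autosomes. F41A4.t1 (Asp; IV, 682816 to 683245, signal 20.9) had partners of 4.40 in replicate 1 and 13.1 in replicate 2 and none in replicate 4. C28G1.t1 (Glu; X, 8835918 to 8836347, signal 19.4) had partners of 7.05 and 14.4 and likewise none in replicate 4. Thus 8 of the 10 were in all 3 library lists, and both exceptions were missing from replicate 4, the shortest list.

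F57F5.t1 (Ile; V, 12002069 to 12002498, signal 20.5), with its summit 108 bp from the start and so just past the end of the gene, had partners of 8.77, 16.2 and 2.43 in replicates 1, 2 and 4. F15B9.t1 (Ala; V, 13003384 to 13003813, signal 20.2), in an intron of a protein-coding gene, had 5.72, 5.57 and 7.53. C05G6.t1 (Val; IV, 620283 to 620712, signal 19.3), also in an intron, had 5.05, 11.8 and 2.39. The replicate 4 partners at F57F5.t1 and C05G6.t1 ranked 4606 and 4717 and had summits 278 and 292 bp away, so these were weak and displaced matches.

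On the other autosomes the highest peaks were lower. They were at F49D11.t1 (Gly; chromosome I, signal 17.4, in all 3 lists), T21B4.t1 (Ile; II, signal 15.5, missing from replicate 4) and F22B7.t3 (Phe; III, signal 13.9, in the replicate 2 list alone). None of these was in the reproducible list.

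Most tRNA genes had a pooled peak nearby. Of the 612 nuclear tRNA genes, 429 had a summit within 1000 bp (70.1%, 95% Clopper-Pearson interval 66.3 to 73.7%), against 51.0% of protein-coding gene starts. Within 100 bp the share was 27.8% (170 genes, interval 24.3 to 31.5%), against 8.56% of protein-coding starts. A peak in all 3 library lists lay within 1000 bp of 47 genes (7.68%, interval 5.70 to 10.1%). A reproducible peak lay within 1000 bp of 12 genes. Intervals here and below cover counting error only, and they treat genes or peaks as independent, which they are not. The 511 peaks fell into 352 loci, 157 of them overlapped another of the 511, and 122 had at least 2 tRNA genes within 1000 bp, so neighbouring genes share peaks. Another gene's start lay closer to the summit than the tRNA start at 216 of the peaks.

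The share of genes with a peak varied among the amino acids, with wide intervals, and its differences were not tested. It was highest for cysteine tRNA genes, with 12 of 13 (interval 64.0 to 99.8%), followed by alanine with 28 of 34 (65.5 to 93.2%), arginine with 35 of 44 and proline with 33 of 42. Of the amino acids with at least 10 genes it was lowest for histidine, with 9 of 20 (23.1 to 68.5%), asparagine, with 11 of 20, and phenylalanine, with 8 of 14. The intervals of cysteine and histidine overlapped, which by itself does not show that their shares are alike. The single selenocysteine tRNA gene had a peak, and of 5 tRNA genes with no assigned amino acid 1 did. For peaks in all 3 library lists the counts were low. Proline tRNA genes had 9 such genes of 42 (10.3 to 36.8%) and alanine 6 of 34, while leucine had 0 of 39 and threonine 0 of 34, with intervals that reach 9.03% and 10.3%. The intervals of proline and leucine did not overlap, but these were picked from many amino acids. The peaks in all 3 lists that were nearest to a proline tRNA gene numbered 7 and lay at 4 loci. The 9 proline genes are therefore not independent.

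**Figure D1:**
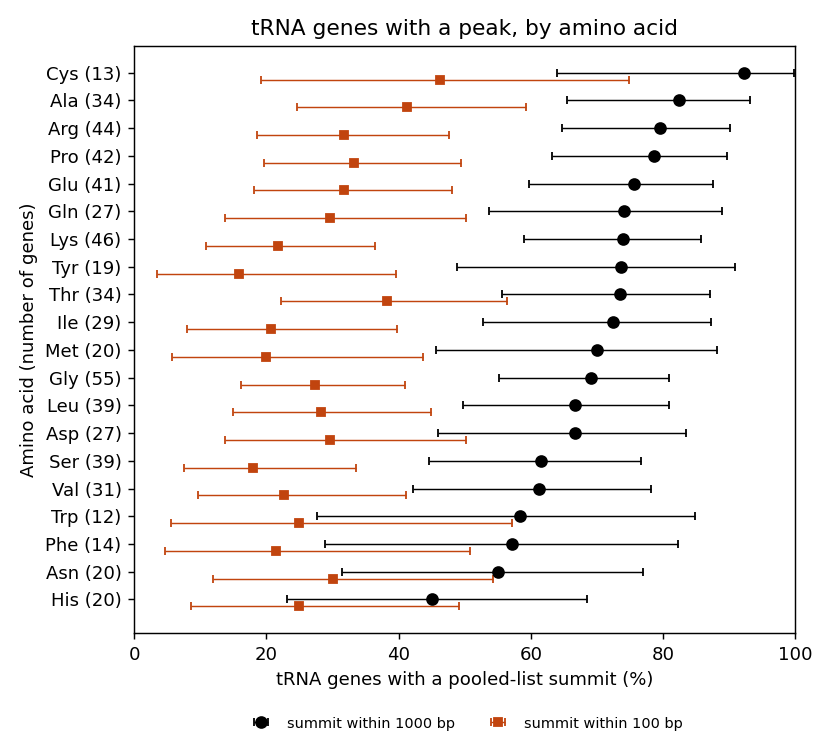
Share of tRNA genes with a pooled-list summit within 1000 bp (black circles) and within 100 bp (red squares) of the gene start, in percent, for amino acids with at least 10 genes. Bars are 95% Clopper-Pearson intervals. Shares within 1000 bp run from 45.0% for histidine to 92.3% for cysteine, with wide, overlapping intervals.

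Genes with identical copies were not left out of the lists. The 612 genes hold 200 distinct sequences, of which 143 occur once. A peak within 1000 bp was present at 73.3% of the 469 genes that share their sequence (interval 69.1 to 77.3%) and at 59.4% of the 143 that do not (50.9 to 67.6%). For peaks in all 3 libraries the shares were 7.68 and 7.69%. The largest family, the 29 copies of the M02F4.t1 glycine tRNA, had a peak within 1000 bp at 25 copies. Within 100 bp, 5 copies had one. The strongest peaks within 1000 bp of the 25 copies had a median signal of 8.40 and lay between 4.65 and 29.6. Of the 10 copies of the C18A11.t2 arginine tRNA, all on the X chromosome, every copy had a peak within 1000 bp. A summit lay within 100 bp of 3 of them. The strongest peaks within 1000 bp of the 10 copies had signals from 5.81 to 30.6. Such a peak can lie nearer to a neighbouring gene, so these values do not measure signal at the copies themselves. Stretches of 36 bases that occur once in the genome made up a median of 87.3% of a peak within 100 bp of a start, on the X chromosome 87.1% and on autosomes 87.6%, against 100% for the other nuclear peaks. How reads from repeated stretches were placed is not stated in the sources used here, and its part in the results was not tested.

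Summits gathered around the gene itself. The median distance from the start was 209 bp and 166 of the 511 summits (32.5%) lay within 100 bp, a stretch that is a small part of the window the rule allows. Upstream of the start were 213 summits, 60 lay inside the gene and 238 beyond its end. The fullest bin of 50 bp, just upstream of the start, held 58 peaks, 28 on the X chromosome and 30 on autosomes. Genes on the plus and the minus strand gave like counts, with 83 summits within 100 bp on each. X summits lay closer, with a median distance of 162 bp against 239 bp on autosomes. The rule bounds all of these distances, so they are a description. Just inside the bound were the peaks of K08B5.t2 (988 bp, signal 13.2), T10B9.t1 (989 bp, 5.35) and C03F11.t1 (999 bp, 5.52), and just outside those of K02E11.t1 (1001 bp, 5.92), F40H6.t1 (1008 bp, 6.53) and F47E1.t1 (1009 bp, 5.13).

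**Figure D2:**
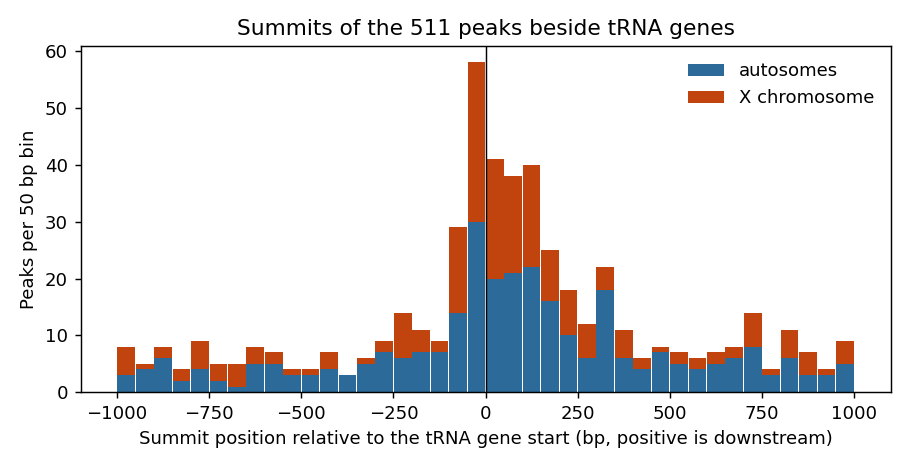
Number of the 511 summits per 50 bp bin (vertical axis) against position relative to the tRNA gene start in bp (horizontal axis, positive is downstream in the gene's direction), stacked for autosomes and the X chromosome. The fullest bin, from 50 bp upstream to the start, holds 58 summits.

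Peaks near the start carried the higher signals. The median signal was 7.78 within 100 bp of the start, 6.90 at 101 to 250 bp, 5.72 at 251 to 500 bp and 5.23 at 501 to 1000 bp, and the corresponding median percentiles within the nuclear pooled list were 85.7, 77.8, 60.0 and 49.4. The other nuclear peaks had a median signal of 5.24. Over all 511 peaks the median percentile was 70.1, with 72.4 on the X chromosome and 69.1 on autosomes.

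The deposited q column gave another order. By that column the median percentile of the 511 peaks was 44.0, below the middle of the list. It is above 0 for only 2.96% of the nuclear pooled peaks, with a median signal of 13.1, and over the 29113 remaining peaks it is lower where the signal is higher. It was above 0 at 63 of the 511 peaks (12.3%) and at 42 of the 166 within 100 bp (25.3%). The placing above the middle of the list therefore holds for the signal and for the share above 0, but not for the median of the q column.

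**Figure D3:**
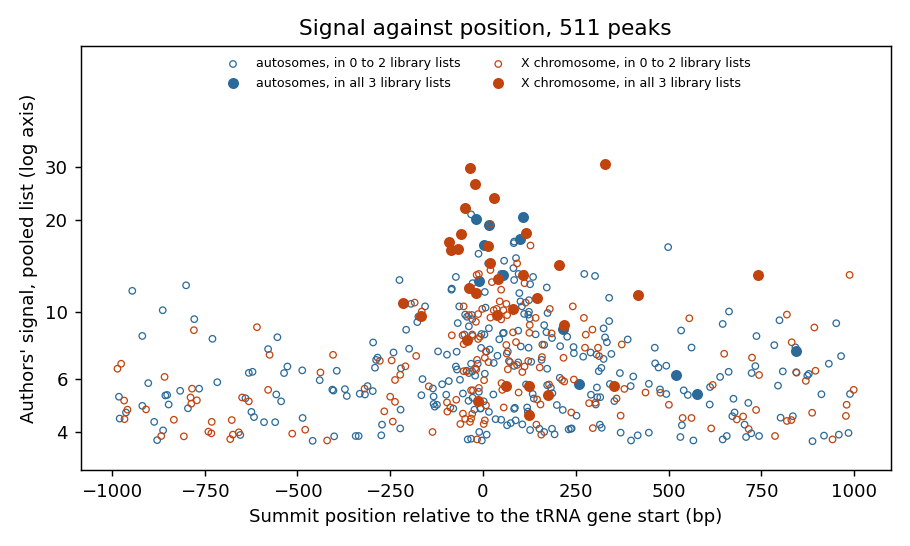
The authors' signal in the pooled list (vertical log axis, no stated unit) against summit position relative to the tRNA gene start in bp, for 511 peaks. Filled points are the 44 peaks in all 3 library lists, open points those in 0 to 2 lists, red for the X chromosome and blue for autosomes. The highest point, at 328 bp and signal 30.6, is the peak beside C18A11.t2.

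A larger share of the peaks beside tRNA genes than of other peaks was found in each of the 3 libraries. A pooled peak was called found in a library when a peak of that library's own list overlapped it by at least 1 bp. In replicate 1, 38.6% of the peaks beside tRNA genes were found, against 23.8% of all nuclear pooled peaks. In replicate 2 the shares were 48.5 and 40.5%, and in replicate 4 they were 29.4 and 16.9%. Against the nuclear peaks farther than 1000 bp from any tRNA start, the differences were 15.0, 8.18 and 12.7 percentage points in replicates 1, 2 and 4. The mean difference was 12 ± 3.47 points (SD, n = 3 libraries) and was positive in 3 of 3 libraries, with p = 0.25 in a two-sided exact sign-flip permutation test, the smallest p that 3 libraries allow. Taken by chromosome the difference was not positive throughout: on chromosome I in replicate 4 and on chromosomes II, III and V in replicate 2 the share beside tRNA genes was below that of the chromosome's other peaks. The pooled list was made from the same 3 libraries, so a peak's presence in it is not independent of its presence in theirs. The pooled list and the library lists hold background beside peaks by their deposited names. Distinct partners were fewer than the peaks found, for example 160 partners for 197 peaks in replicate 1.

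Presence in several libraries was also more frequent beside tRNA genes. Of the 511 peaks, 44 were in all 3 library lists (8.61%, interval 6.33 to 11.4%), against 2.15% of all nuclear pooled peaks. In at least 2 lists were 159 (31.1%, interval 27.1 to 35.3%), against 14.8% of all nuclear pooled peaks. In none of the lists were 23.3%, against 35.9% of the other peaks. The 44 lay at 32 loci beside 33 tRNA genes, and 36 of them were within 250 bp of the start. Their median signal was 12.7, in a range of 4.56 to 30.6.

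The number in all 3 lists depended on the matching rule. When summits had to lie within 100 bp of each other, 6 of the 511 were in every list (1.17%) against 0.390% of the other nuclear peaks. With a reciprocal overlap of 50% the shares were 4.50 and 1.02%, and with each list reduced to its 5000 highest signals they were 4.31 and 0.902%. The peaks beside tRNA genes had the higher share under each of these rules. Without replicate 1, 13.3% were in both other lists against 6.26% of the other peaks. Without replicate 2 the shares were 14.9 and 4.38%, and without replicate 4 they were 20.2 and 7.91%.

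The share found was lower farther from the start. Within 100 bp it was 55.4, 55.4 and 38.6% in replicates 1, 2 and 4, and at 501 to 1000 bp it was 18.6, 33.6 and 20%. The differences between these bins were 36.9, 21.9 and 18.6 points, with a mean of 25.8 ± 9.75 (SD, n = 3 libraries; exact permutation p = 0.25, the smallest possible). In all 3 lists were 13.9% of the peaks within 100 bp, 11.1% at 101 to 250 bp, 4.55% at 251 to 500 bp and 2.86% at 501 to 1000 bp. In the outermost bin the share found was not above that of the other nuclear peaks: it was lower in replicates 1 and 2, with differences of -4.98 and -6.78 points, and higher in replicate 4, by 3.32 points, with exact permutation p = 0.5 (n = 3).

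**Figure D4:**
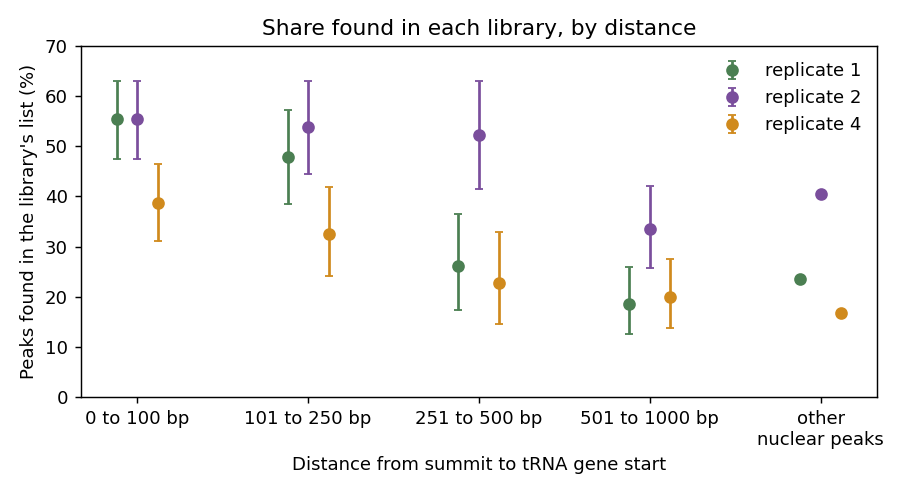
Share of pooled peaks found in each library's own list, in percent, by distance from summit to tRNA gene start, with all other nuclear peaks at the right. Points are replicates 1, 2 and 4 and bars are 95% Clopper-Pearson intervals, narrower than the points for the other peaks. Shares in all 3 replicates are lower at 501 to 1000 bp than within 100 bp.

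Peaks of high signal were in all 3 lists more often whatever their place: among the other nuclear peaks the share was 0.324% in the lower 50% of the list by signal, and 14.1% in the upper 10%. Among peaks in the upper 10% of the nuclear pooled list by signal, 24.4% of the 135 beside tRNA genes (interval 17.5 to 32.6%) and 14.1% of the 2865 others (12.8 to 15.4%) were in all 3 lists. The per-library differences within that stratum were 19.4 points in replicate 1, -0.0659 in replicate 2 and 3.30 in replicate 4, with exact permutation p = 0.5 (n = 3). Within this stratum the gap was thus largest in replicate 1 and close to 0 in replicate 2. At percentiles 50 to 90 the shares found beside tRNA genes were 31.0, 45.5 and 26.3% in replicates 1, 2 and 4. For the other peaks of that stratum they were 26.5, 48.2 and 18.1%, so replicate 2 went the other way. In the lower 50% the share beside tRNA genes was the higher one in each replicate.

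The X chromosome held 212 of the 511 peaks (41.5%, interval 37.2 to 45.9%). It holds 18.5% of all nuclear pooled peaks and 17.7% of the nuclear genome, but 45.1% of nuclear tRNA genes (276 of 612). Per gene the X chromosome was like the autosomes: a summit lay within 1000 bp of 71.4% of X genes (interval 65.7 to 76.6%) and 69.0% of autosomal genes (63.8 to 74.0%). Chromosomes IV and V gave the highest and the lowest share, with 80.3% of 71 genes (69.1 to 88.8%) and 52.6% of 78 genes (40.9 to 64.0%). The number of peaks on the X chromosome thus followed the number of tRNA genes there.

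The X peaks differed from the autosomal ones in how many libraries held them. Of the X peaks, 32 of 212 were in all 3 lists (15.1%, interval 10.6 to 20.6%), against 12 of 299 autosomal peaks (4.01%, interval 2.09 to 6.91%). The background is 2.15% for all nuclear pooled peaks, and for the peaks away from tRNA genes the shares were 2.64% on the X chromosome and 1.91% on autosomes. Among tRNA genes, 35 of 276 on the X chromosome (12.7%, interval 8.99 to 17.2%) and 12 of 336 on autosomes (3.57%, interval 1.86 to 6.16%) had such a peak within 1000 bp. By locus the 44 peaks in all 3 lists were 23 loci on the X chromosome and 9 on autosomes.

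Per library the X difference was largest in replicate 4. The share found on the X chromosome and on autosomes was 41.5 and 36.5% in replicate 1, 51.9 and 46.2% in replicate 2, and 36.8 and 24.1% in replicate 4. The differences were 5.05, 5.73 and 12.7 points, with a mean of 7.83 ± 4.24 (SD, n = 3 libraries), positive in 3 of 3 and with exact permutation p = 0.25, the smallest possible. The replicate 4 list as a whole had the largest X share, 20.6% of its peaks against 18.6 and 18.0% in replicates 1 and 2. For peaks away from tRNA genes the X minus autosome differences were 0.304, -0.757 and 2.77 points. Without replicate 4, 24.5% of X and 17.1% of autosomal peaks beside tRNA genes were in both other lists, without replicate 1 20.8 and 8.03%, and without replicate 2 21.2 and 10.4%. The X and autosomal shares were thus closest without replicate 4.

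The X difference was present near the start and in the upper 10% by signal, but not in each distance bin and signal stratum. Within 100 bp, 18 of 81 X peaks (22.2%, interval 13.7 to 32.8%) and 5 of 85 autosomal peaks (5.88%, interval 1.94 to 13.2%) were in all 3 lists. Among peaks in the upper 10% by signal the shares were 38.5% of 65 on the X chromosome (26.7 to 51.4%) and 11.4% of 70 on autosomes (5.07 to 21.3%), and for other peaks of that stratum 18.1 and 13.1%. At 501 to 1000 bp only 1 of 57 X peaks and 3 of 83 autosomal peaks were in all 3 lists. Under the stricter matching rules the X and autosomal shares were 2.36 and 0.334% for summits within 100 bp, 8.02 and 2.01% for a reciprocal overlap of 50%, and 6.13 and 3.01% for the 5000 highest signals.

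**Figure D5:**
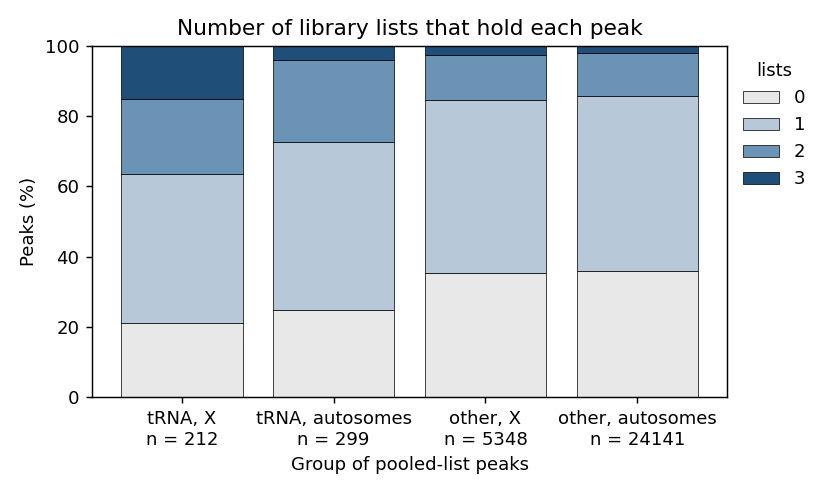
Share of pooled-list peaks (percent, vertical axis) that were in 0, 1, 2 or 3 of the library lists, for peaks beside tRNA genes and other nuclear peaks on the X chromosome and autosomes. The darkest segment, peaks in all 3 lists, is 15.1, 4.01, 2.64 and 1.91% from left to right.

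Peaks beside other short noncoding RNA genes were also found often. Genes of small nuclear and small nucleolar RNAs, which act in splicing and RNA modification, had 404 other pooled peaks within 1000 bp of their starts, of which 8.66% were in all 3 lists (interval 6.11 to 11.8%). The per-library differences, tRNA minus these, were 3.40, -6.67 and -2.82 points, with a mean of -2.03 ± 5.08 (SD, n = 3; exact permutation p = 0.750). The sign of the difference was not the same in all 3 libraries, so the high share in all 3 lists cannot be called particular to tRNA genes. Of these peaks, 75 lay within 100 bp of a start, and 58.7, 62.7 and 44.0% were found in replicates 1, 2 and 4. In all 3 lists were 16.0% of the 75 (interval 8.55 to 26.3%), and their median signal percentile was 90.3. A reproducible peak overlapped 3.96% of the 404 (interval 2.28 to 6.35%) and 2.54% of the 511 beside tRNA genes (1.36 to 4.31%). Within 100 bp of a start these shares were 9.33% (3.84 to 18.3%) and 4.82% (2.10 to 9.27%). The high values close to tRNA starts are thus not particular to tRNA genes either. Against the 11290 other peaks within 1000 bp of protein-coding starts, of which 2.36% were in all 3 lists, the differences were 13.6, 6.37 and 11.5 points (mean 10.5 ± 3.71, SD, n = 3; exact permutation p = 0.25). Of the 511 peaks, 92 had a protein-coding start within 500 bp. Of these, 4 were in all 3 lists (4.35%, interval 1.20 to 10.8%), against 9.55% of the other 419 (6.91 to 12.8%). The intervals overlapped, and in at least 2 lists the shares were 30.4 and 31.3%.

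The letters of the B box were common under the summits, as the position of the summits implies. The core GTTCGANNC, searched on either strand up to 100 bp from the summit, was present at 122 of the 511 peaks (23.9%, interval 20.2 to 27.8%), against 1.94% of all nuclear pooled peaks, and at 53.6% of those within 100 bp of a start. Of the tRNA genes themselves 72.1% contain it and 95.9% contain the looser GTTCNANNC. The looser core, which includes every match of the stricter one, was present at 36.2% of the 511 peaks, at 74.7% within 100 bp of a start and at 7.76% of all nuclear pooled peaks.

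A GA repeat was more frequent in the bin nearest the start and in no other bin by more than its counting error. GAGAGA, searched on either strand up to 100 bp from the summit, was present at 18.8% of the 511 peaks (interval 15.5 to 22.4%), against 14.2% of all nuclear pooled peaks, and at 52 of the 166 peaks within 100 bp of a start (31.3%, interval 24.4 to 39.0%). At 101 to 250, 251 to 500 and 501 to 1000 bp the shares were 11.1, 10.2 and 15.7%. Of the other nuclear peaks in the upper 10% by signal, 25.1% held it. With the bases of tRNA genes masked, 29.5% of those 166 still held it, so few of the matches were in the genes. TGATAA, a form of the GATA motif, was present at 17.8% of the 511 peaks and 18.8% of all nuclear pooled peaks. The median GC content was 45.3% at peaks within 100 bp of a start, 39.3% over the 511 and 35.8% over other nuclear peaks, and its part in the shares was not tested.

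Genes for the proteins that make and charge tRNAs had pooled peaks in a share close to that of all protein-coding genes. Of 27 listed genes 26 were matched in the annotation, and 15 of these had a pooled summit within 1000 bp of their start (57.7%), against 51.0% of protein-coding genes. These were 13 of 20 aminoacyl-tRNA synthetases, which join tRNAs to their amino acids, 0 of 4 genes of RNA polymerase III transcription (brf-1, mafr-1, rpc-1 and tbp-1), and both rtcb-1, the tRNA ligase, and xpo-3, the tRNA exportin. None of the 15 had its strongest peak in all 3 lists or in the reproducible list. Of the other peaks within 1000 bp of protein-coding starts, 2.36% were in all 3 lists and 0.434% overlapped a reproducible peak. At such low shares, none among 15 is no contrast with tRNA genes. The highest signals were 8.45 at pars-1, for prolyl-tRNA, 7.92 at nars-1, for asparaginyl-tRNA, and 7.42 at mars-1, for methionyl-tRNA. Their percentiles within the nuclear pooled list were 89.7, 86.5 and 83.0. The pars-1 peak had partners in replicates 1 and 4 (signals 2.93 and 3.88), and those of nars-1 and mars-1 in replicate 2 alone (7.44 and 5.44).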

How the data were processed

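Per the labels, tagged EGL-27 was immunoprecipitated from 3 libraries of sonicated chromatin, taken as 1 group. Peak lists on ce11 were used as the authors deposited them: 9666, 13686 and 6636 peaks in replicates 1, 2 and 4, a pooled list of 30000 peaks of 430 bp made from the 3 alignments and a control, and a reproducible list of 102, per the deposited README texts. The deposited signal column is never below 0 and has no stated scale. The deposited q column was read as a score, since it is below 0 at most pooled peaks. The sources used here do not name the aligner, the caller or the IDR threshold, and read depth is unknown. The relaxed lists hold background by their deposited names.

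tRNA genes came from Ensembl release 115 and their names and amino acids from RefSeq, with all 612 nuclear genes matched. Summits were counted from the deposited offset, and coordinates are 1-based. Partners overlapped by 1 bp or more. Libraries shared 2 to 11 identical summits with each other and were counted separately. Shares have 95% Clopper-Pearson intervals over peaks. Differences were tested over the 3 libraries by two-sided exact sign-flip permutation, whose p rests on these libraries alone. It is 0.25 whenever all 3 differences have the same sign, whatever their spread. The procedures were tested on simulated data. Python 3.11.15, numpy 2.4.6, pandas 2.3.3, scipy 1.17.1 and matplotlib 3.10.9 were used.

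Named peaks are those overlapping the reproducible list, the highest of each chromosome, those among the upper 10 by signal in all 3 lists, and the 3 nearest to 1000 bp on either side. The members and lists were chosen with earlier results of these data known. Alternatives covered distance, overlap, list length, locus, ranking column, motif and leaving out each replicate.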

Additional observations from a re-analysis of the deposited data

Results flagged for a closer look

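Replicate 2 held 23 peaks on the mitochondrial genome, which the nuclear rule leaves out, while replicates 1 and 4 held 0 each. Of the 23 peaks, 20 had summits within 1000 bp of the start of a mitochondrial tRNA gene, of which there are 22. The share of the mitochondrial genome within 1000 bp of such a start was not computed. The count of 20 therefore does not show that the peaks gather at tRNA genes. Signals of the 23 peaks ran from 14.1 to 335. The 23 peaks were picked out because they lie outside the nuclear peaks compared in the report and are present in 1 library.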

How the results depend on the processing

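Of 107 alternatives 67 left a result much as it was, meaning a count of peaks within 1.5 times, a share or median within its 95% counting interval, or a difference in the same direction, and 40 moved it. None changed the sign of a difference, but the median percentile crossed the middle of the list when the q column was used for ranking. The X share and both per-library differences kept their direction under every alternative tried, with p never able to pass 0.05 (smallest exact permutation p 0.25, n = 3). These alternatives did not include the distance bins and signal strata, where both differences were at times reversed. The number of peaks was 769 within 2000 bp and 295 where the tRNA start was the nearest of all starts, which also left 8 peaks in the reproducible list. tRNA genes with a peak were 59.0% within 500 bp, 83.8% within 2000 bp and 57.4% in the upper 50% by signal. The share in all 3 lists was 12.1% in the upper 50% by signal (X 21.0%), 1.17% for summits within 100 bp (X 2.36%, autosomes 0.334%), 4.50% with a reciprocal overlap of 50% (X 8.02%, autosomes 2.01%) and 4.31% for the 5000 highest signals (X 6.13%). With any replicate left out, so that only 2 lists had to match, it ran from 13.3 to 20.2% (X 20.8 to 24.5%, autosomes 8.03 to 17.1%). The median signal percentile was 77.2 within 500 bp, 59.9 within 2000 bp, 81.0 with 1 peak per locus, 84.6 in the upper 50% and 44.0 by the q column. The median distance was 122, 556, 123 and 165 bp within 500 bp, within 2000 bp, with the tRNA start nearest and in the upper 50%. The B box core was present at 32.1% within 500 bp, 16.9% within 2000 bp, 29.3% in the upper 50%, 10.6% and 42.3% with windows of 50 and 250 bp, and 36.2% for GTTCNANNC. The looser core, the X and autosomal shares under each setting and the masking of tRNA bases were chosen after seeing the data. The cause of these moves was not tested. No paired analysis was possible because there is 1 group. Read depth is unknown, so a peak missing from a library was not detected there, which does not show that it is absent.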

Other observations

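The setting of the tRNA genes gave further values. Of the 511 peaks, 268 were nearest to a tRNA gene inside a protein-coding gene and 243 to one between protein-coding genes. In all 3 library lists were 7.46% of the first (interval 4.62 to 11.3%) and 9.88% of the second (6.43 to 14.3%). The share found for tRNA genes inside protein-coding genes was 33.6, 49.3 and 23.9% in replicates 1, 2 and 4, and for those between genes 44.0, 47.7 and 35.4%. The summit itself lay between genes at 54.2% of X peaks and 36.8% of autosomal peaks.

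The libraries ordered the chromosomes differently. Of the 56 peaks beside tRNA genes on chromosome I, 33.9, 64.3 and 12.5% were found in replicates 1, 2 and 4, and of the other peaks there 23.1, 41.3 and 16.1%. Of the 59 on chromosome II 49.2, 39.0 and 30.5% were found, and of the other peaks there 23.7, 39.5 and 18.2%. In replicate 2 the shares on chromosomes III and V were 34.9 and 35.7% beside tRNA genes and 40.3 and 41.7% elsewhere. Peaks with a share of unique 36-base stretches below the median of the 511 had 12.8% in all 3 lists (interval 8.92 to 17.6%) and a median distance of 73.0 bp, and those at or above it had 4.60% (2.40 to 7.89%) and 519 bp, so repeat content and distance cannot be told apart here.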
